A study of Mus musculus with 7 samples.

Results

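Tetraspanins are small membrane proteins that cross the membrane several times and bind one another and other surface proteins, so that integrins, immunoglobulin-like proteins, proteases and receptors are held together in patches called tetraspanin-enriched microdomains. Some act at the plasma membrane, some travel through late endosomes and are sorted into exosomes, and some escort the sheddase ADAM10 to the cell surface. In macrophages they are known for roles in adhesion, cell fusion, phagocytosis and vesicle release.

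The family was taken as the protein-coding genes of the count table whose symbol starts with Tspan and a digit, together with Cd9, Cd37, Cd53, Cd63, Cd81, Cd82, Cd151, Upk1a, Upk1b, Prph2 and Rom1. This gave 31 genes of the 57010 in the table. Their poly-A transcripts were counted in Tim4+ resident macrophages, a long-lived population of the peritoneal cavity that was sorted from peritoneal cell suspensions of C57BL/6 mice. There were 4 libraries from mice at day 12 after injection of m204 MTO and 3 libraries from control mice in steady state, with no other treatment or allele named for either group. The labels do not spell out MTO, give no age or sex, and do not say whether mice were pooled, while the series title refers to colorectal cancer in the peritoneum. Levels are given as CPM, read counts scaled to a common library size after TMM normalisation, and as mean ± SD over n = 4 day 12 and n = 3 steady-state libraries.

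Library totals were 34578834 to 38586694 counts at day 12 and 32077050 to 36201021 counts in steady state. Macrophage markers were present in every library, with Timd4 at 495 ± 114 CPM at day 12 and 963 ± 80.5 CPM in steady state, and Adgre1 at 4734 ± 563 CPM at day 12 and 2573 ± 167 CPM in steady state. Csf1r stood at 1505 ± 95.7 CPM at day 12 and 2025 ± 186 CPM in steady state, and the peritoneal macrophage factor Gata6 at 246 ± 26.3 CPM at day 12 and 175 ± 4.72 CPM in steady state. Itgam stood at 2133 ± 361 CPM at day 12 and 1328 ± 124 CPM in steady state, and Icam2 at 599.5 ± 51.8 CPM at day 12 and 544 ± 29.6 CPM in steady state. Summed markers of B cells stood at 19.5 to 42.9 CPM at day 12 and 6.39 to 9.93 CPM in steady state, with 4 of 7 markers higher. Summed monocyte markers ranged from 18.1 to 167 CPM at day 12 and from 18.4 to 31.7 CPM in steady state, but they did not move together. Plac8 was higher (mean 66.3 CPM at day 12 and 0.728 CPM in steady state) and Ccr2 was lower (5.19 and 11.8 CPM). Vcan did not pass (12.0 and 11.1 CPM), and Ly6c2 was not tested. Summed platelet markers, nearly all of it Pf4, stood at 15.9 to 81.2 CPM at day 12 and 465 to 697 CPM in steady state, with Ppbp, Gp9 and Gp1ba near 0 throughout. Neutrophil markers summed to 1.62 to 3.13 CPM at day 12 and 1.01 to 1.41 CPM in steady state, and mesothelial markers to 0.105 to 0.327 CPM at day 12 and 0 to 0.0280 CPM in steady state, with Mpo, Ly6g and Msln at 0 in all 7 libraries. The part of these markers in the changes below was not tested.

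The change of the family was uneven, with some members several-fold lower at day 12 and others up to 1.87-fold higher. Of the 31 members, 19 passed the filter on low counts and were tested among 15981 genes with edgeR's quasi-likelihood test (Benjamini-Hochberg adjusted p under 0.05). All 19 met the filter in each group on its own. At day 12, 4 of the 19 were higher (Cd9, Tspan9, Tspan32 and Tspan3) and 5 were lower (Cd63, Tspan7, Cd81, Tspan5 and Tspan13), while 10 did not pass. Without steady-state replicate 1, 2 or 3, the number higher was 2, and the share of all genes in those fits is not given here. With all libraries, 20.3% of all genes tested were called, 10.1% as higher and 10.2% as lower. The median log2 fold change of the tested members was -0.15, against 0.0031 for the whole set of tested genes. Day 12 and steady-state libraries were fully apart in 10 of the 19 members, 4 with day 12 above and 6 with day 12 below, whereas the background share was 35.0%, 16.5% above and 18.5% below. P-values measure only the spread between these libraries, and in bulk RNA fewer cells of a type and less RNA per cell cannot be told apart. The 31 members together held 0.209% to 0.226% of the counts of a library at day 12 and 0.213% to 0.215% in steady state.

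**Figure D1:**
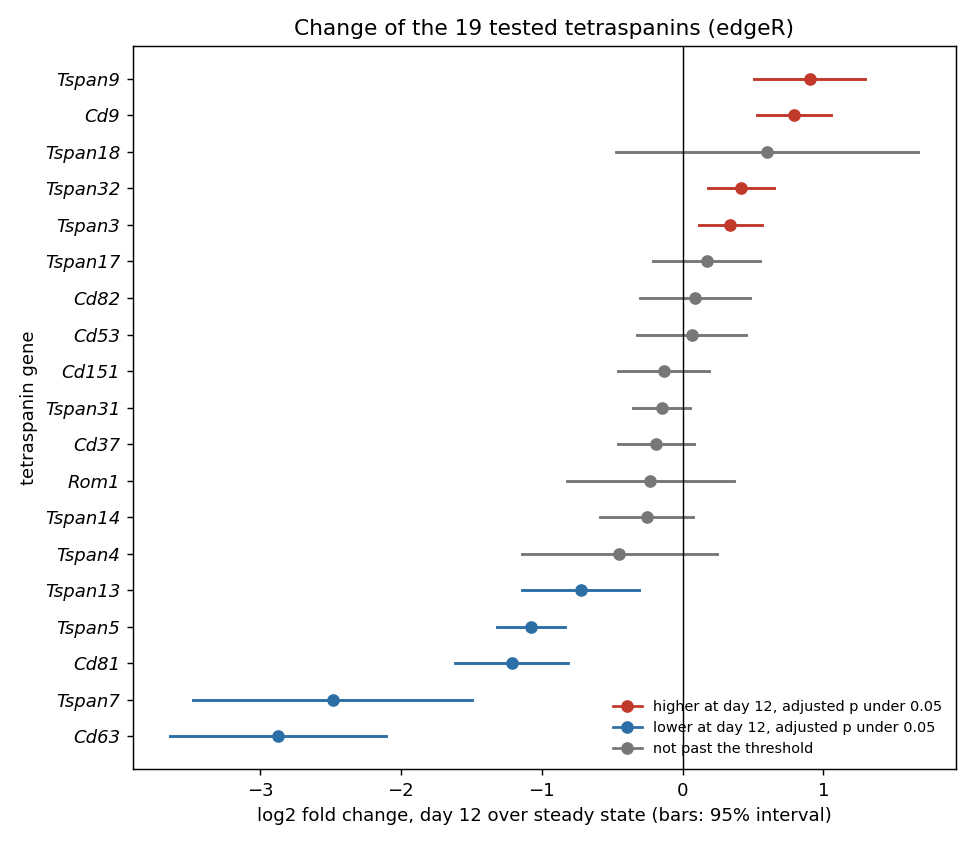
Log2 fold change of each tested tetraspanin, day 12 over steady state (horizontal axis, with 95% intervals), sorted by size (vertical axis). The 4 members past the threshold on the right are Cd9, Tspan9, Tspan32 and Tspan3, and Cd63 and Tspan7 lie farthest to the left at -2.87 and -2.48.

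Promoters are shown for Cd63, Cd81 and Tspan5, which fell, and for Cd9, which rose. Tspan9, which rose more than Cd9 (log2 fold change 0.90 against 0.79), is not among them. Each window runs from 250 bases before to 50 bases after the annotated start, 5′ to 3′ on the strand of the gene, from RefSeq on GRCm38.p6. Capitals mark GGGCGG, the core of a GC box, on either strand. The windows are chr10:128909095-128909394 on the plus strand for Cd63, chr7:143052500-143052799 on the plus strand for Cd81, chr3:138741958-138742257 on the plus strand for Tspan5 and chr6:125494711-125495010 on the minus strand for Cd9.
Cd63: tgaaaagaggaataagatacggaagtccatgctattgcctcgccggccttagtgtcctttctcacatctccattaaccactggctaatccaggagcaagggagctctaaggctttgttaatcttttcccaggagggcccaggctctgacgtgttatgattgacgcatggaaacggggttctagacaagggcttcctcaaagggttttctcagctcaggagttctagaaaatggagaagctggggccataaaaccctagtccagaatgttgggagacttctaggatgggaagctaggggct
Cd81: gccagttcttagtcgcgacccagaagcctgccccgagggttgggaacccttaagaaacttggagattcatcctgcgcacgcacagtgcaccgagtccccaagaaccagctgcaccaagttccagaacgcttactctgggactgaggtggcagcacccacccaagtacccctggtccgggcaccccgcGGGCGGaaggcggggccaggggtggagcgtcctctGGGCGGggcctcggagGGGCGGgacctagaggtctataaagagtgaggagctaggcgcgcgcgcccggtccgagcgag
Tspan5: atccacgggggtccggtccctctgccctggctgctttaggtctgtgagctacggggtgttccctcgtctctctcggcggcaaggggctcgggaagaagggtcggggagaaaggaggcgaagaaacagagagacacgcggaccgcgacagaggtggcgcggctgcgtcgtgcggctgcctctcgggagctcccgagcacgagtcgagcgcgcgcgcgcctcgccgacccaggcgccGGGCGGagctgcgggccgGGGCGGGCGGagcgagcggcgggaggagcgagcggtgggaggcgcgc
Cd9: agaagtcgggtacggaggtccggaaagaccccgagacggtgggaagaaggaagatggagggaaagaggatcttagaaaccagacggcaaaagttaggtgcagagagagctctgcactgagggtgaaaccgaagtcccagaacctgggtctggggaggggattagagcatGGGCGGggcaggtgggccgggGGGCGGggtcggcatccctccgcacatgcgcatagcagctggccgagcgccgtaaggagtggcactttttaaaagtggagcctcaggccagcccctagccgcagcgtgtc

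The Cd63 window had a GC content of 49.3% and no GGGCGG, whereas the windows of Cd81 (65.7% GC), Tspan5 (73.3% GC) and Cd9 (61.3% GC) held 3, 3 and 2 matches, of which 2 in Tspan5 overlap each other. Over the 32841 promoter windows of the RefSeq table, 35.7% hold GGGCGG and the median GC content is 52.7%. Searches on both strands for the E-box CACGTG, present in 7.15% of windows, and the AP-1 motif TGANTCA, present in 7.81%, gave no match in the 4 windows. The ETS-type motif GAGGAAGT, present in 3.20% of windows, and CCAAT, present in 37.4%, gave none either. GGGCGG was thus found in Cd9, which rose, and in Cd81 and Tspan5, which fell. A match is only a run of letters in the window, and its absence says nothing about the factor. Windows were found for 29 of the 31 members.

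Per kilobase of exon, the abundance order of the family was led by a few members. At day 12 Cd9 was highest with a mean of 463 CPM per kb, followed by Cd53 (320.1), Cd37 (109) and Tspan14 (85.2). In steady state Cd53 led with 306 CPM per kb, followed by Cd9 (267), Cd37 (125) and Tspan14 (102). The ranges of Cd9 and Cd53 over libraries did not overlap at day 12, with Cd9 above, and overlapped in steady state. With exon lengths taken from all transcripts, an alternative chosen after seeing the data, Cd53 stayed above Cd9 at day 12 as well. The ranges of Cd37 and Tspan14 overlapped at day 12, as did those of Cd81, Tspan31 and Tspan32, which followed at 43.5, 41.9 and 40.7 CPM per kb. In steady state Cd81 stood at 101 CPM per kb, its range overlapping that of Tspan14, and apart from Tspan31 at 46.4. With the exon lengths of all transcripts, Tspan31 ranked 5, Cd81 6 and Tspan32 9 at day 12, and Tspan18 ranked 19 in steady state, below Tspan7. Overlaps of these ranges were not computed with those lengths. Cd63 ranked 15 of 19 at day 12 with 4.18 CPM per kb and 8 in steady state with 30.5 CPM per kb, and with the exon lengths of all transcripts it ranked 16 at day 12 and 11 in steady state. The lower end was formed at day 12 by Tspan18, Rom1 and Tspan7 at 0.801, 0.781 and 0.0501 CPM per kb. The same genes closed the order in steady state, where Rom1 stood at 0.913, Tspan18 at 0.528 and Tspan7 at 0.284 CPM per kb. Cd53, Cd9, Cd37 and Tspan14 together took 76.0% to 80.5% of the members' counts at day 12 and 70.7% to 73.0% in steady state.

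**Figure D2:**
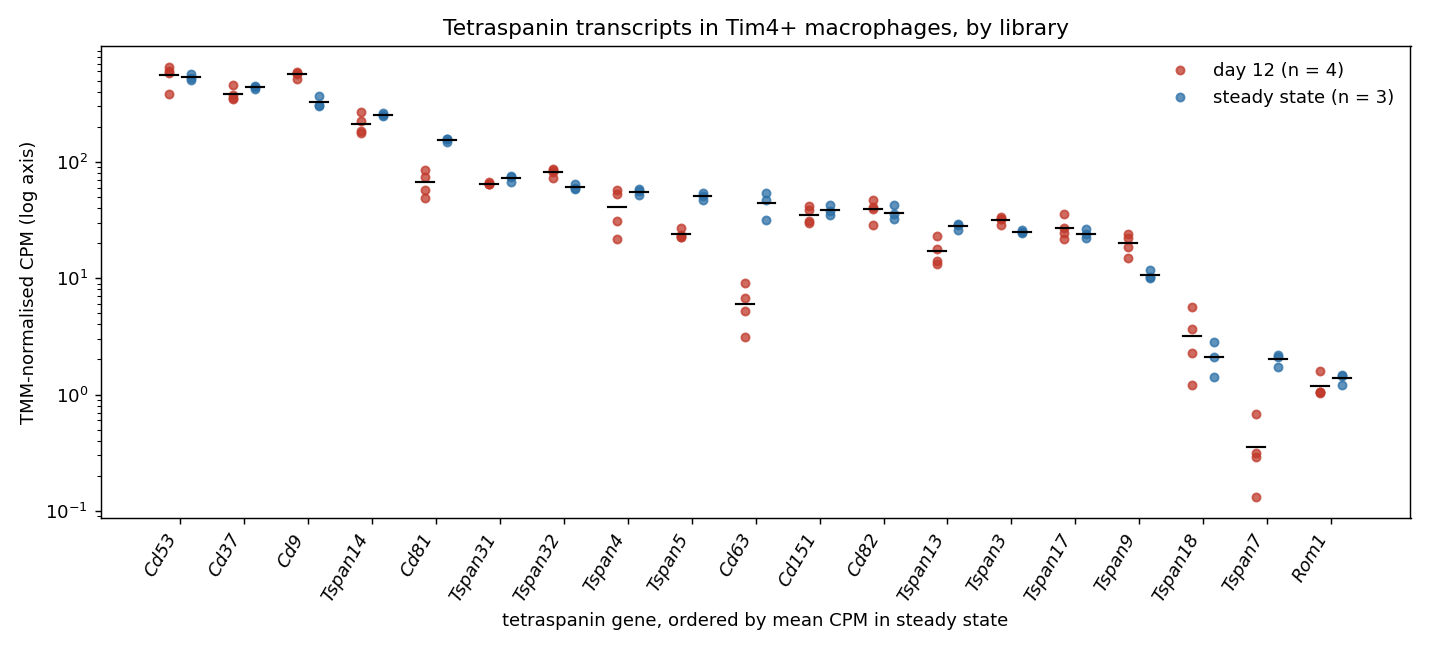
TMM-normalised CPM of each tested tetraspanin in every library (log axis), with day 12 left of steady state for each gene and black lines at the means, ordered by the steady-state mean. Cd63 and Tspan7 show the widest gap between the groups, while Cd53, Cd82 and Cd151 overlap.

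Cd63, the tetraspanin of late endosomes, lysosomes and exosomes, fell most. The gene (ENSMUSG00000025351, chr10:128736858-128748691, GRCm39) had 3.13, 6.81, 5.21 and 9.08 CPM in day 12 replicates 1 to 4, against 31.5, 46.9 and 54.4 CPM in steady-state replicates 1 to 3. Every day 12 library lay far below every steady-state library. The means were 6.06 ± 2.52 CPM at day 12 and 44.3 ± 11.7 CPM in steady state, a 7.31-fold lower level (log2 fold change -2.87, SE 0.33, 95% interval -3.64 to -2.11, edgeR adjusted p = 0.000822). A gene listed as Cd63-ps, a pseudogene of Cd63, was counted separately, and its reads cannot be told apart with certainty from those of Cd63. It held 30.9% to 43.5% of the reads of the pair at day 12 and 34.1% to 36.8% in steady state. Summing the pair, an alternative chosen after seeing the data, gave 9.65 ± 3.31 CPM at day 12 and 68.8 ± 17.2 CPM in steady state. The log2 fold change of the sum was -2.83 (SE 0.29, edgeR adjusted p = 0.000375), close to that of Cd63 alone.

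Other genes of exosome formation and of late endosomes were looked up beside Cd63. Of 23 genes on this list, 22 were tested, 2 were higher, 2 were lower and 18 did not pass, where 10.1% of all genes tested were higher and 10.2% lower, with a median log2 fold change of -0.075. The lysosomal membrane genes Lamp1 and Lamp2, which share compartments with Cd63, stood at 1378 ± 72.4 CPM and 1123 ± 108 CPM at day 12, against 1461 ± 101 CPM and 1184 ± 70.7 CPM in steady state. Their 95% intervals, -0.33 to 0.16 for Lamp1 and -0.34 to 0.19 for Lamp2, do not reach the size of the fall of Cd63. Sdcbp (syntenin, a CD63-binding adaptor of exosome formation) had a log2 fold change of -0.22 with an interval of -0.45 to 0.016, and Pdcd6ip (ALIX) one of -0.081 with an interval of -0.29 to 0.13. The raft scaffold Flot1 was higher, at 71.5 ± 18.4 CPM at day 12 and 36.5 ± 5.68 CPM in steady state (log2 fold change 0.97, edgeR adjusted p = 0.00888). Its partner Flot2 was higher at 109.9 ± 16.7 CPM at day 12 and 78.3 ± 1.11 CPM in steady state (log2 fold change 0.49, edgeR adjusted p = 0.0255). Rab31, a small GTPase of endosomes, was lower at 186 ± 36.1 CPM at day 12 and 305 ± 24.7 CPM in steady state (log2 fold change -0.71, edgeR adjusted p = 0.0103). The sphingomyelinase Smpd3 was lower on 7 reads at day 12 and 35 in steady state (edgeR adjusted p = 0.0420), but it passed the filter on low counts only through steady state and so had to differ. Without a single library some of these calls ended: Flot2 without day 12 replicate 3 (edgeR adjusted p = 0.0548) or without steady-state replicate 1, 2 or 3 (0.0989, 0.0917 and 0.0991), Rab31 without steady-state replicate 3 (0.0548), and Smpd3 without day 12 replicate 1, 3 or 4 (0.0734, 0.0658 and 0.0665) or steady-state replicate 1, 2 or 3 (0.132, 0.117 and 0.109). The log2 fold change of Smpd3 was -2.82 with all libraries and -4.77 without day 12 replicate 2.

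Cd81 and Cd9, close relatives that share binding partners and in mice limit the fusion of macrophages, moved in opposite directions. Cd81 (ENSMUSG00000037706, chr7:142606476-142621671) had 48.6, 74.7, 57.8 and 85.4 CPM in day 12 replicates 1 to 4, against 148, 159 and 156 CPM in steady-state replicates 1 to 3. No day 12 library reached the steady-state range, and the means of 66.6 ± 16.5 CPM at day 12 and 154 ± 5.57 CPM in steady state gave a 2.32-fold lower level (log2 fold change -1.21, SE 0.18, edgeR adjusted p = 0.00173). Cd9 (ENSMUSG00000030342, chr6:125437229-125471754) had 519.6, 586, 575 and 594 CPM in day 12 replicates 1 to 4, against 372, 311 and 302 CPM in steady-state replicates 1 to 3. All day 12 libraries lay above all steady-state libraries. The means of 569 ± 33.7 CPM at day 12 and 328 ± 38.1 CPM in steady state gave a 1.73-fold higher level (log2 fold change 0.79, SE 0.12, edgeR adjusted p = 0.00183). The pseudogene Cd9-ps held 1.78% to 2.53% of the reads of the pair at day 12 and 1.88% to 2.38% in steady state, and the summed pair had the same log2 fold change of 0.79. The ratio of Cd9 to Cd81, computed after the values were seen and not tested, was 10.7, 7.85, 9.94 and 6.96 in day 12 replicates 1 to 4, against 2.51, 1.96 and 1.94 in steady-state replicates 1 to 3.

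**Figure D3:**
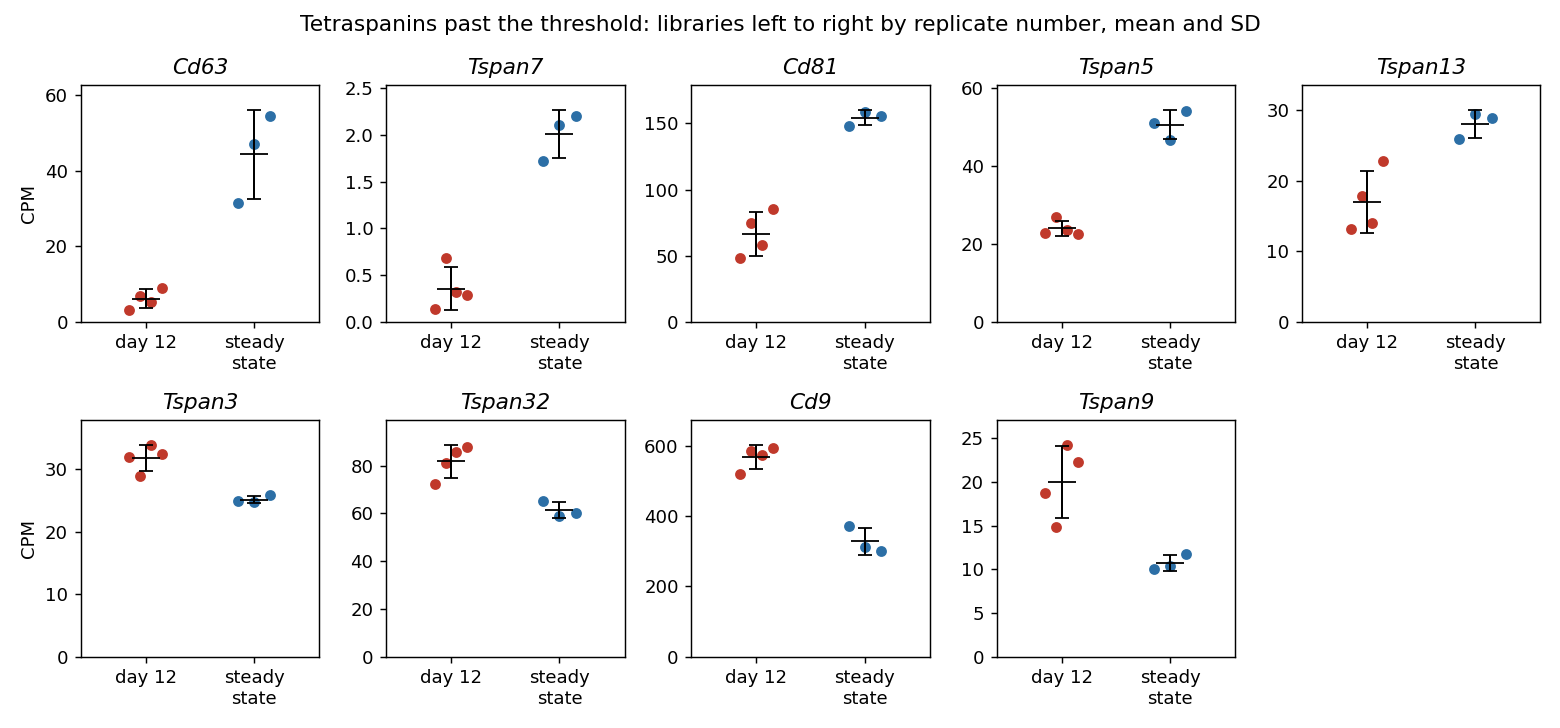
CPM per library of the 9 tetraspanins past the threshold, day 12 left of steady state in each panel, with black marks for the mean and SD (n = 4 and n = 3). The groups do not overlap in any of the 9 panels, and Cd63 and Tspan7 have the widest separation in proportion to their level.

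The closest partners of CD9 and CD81 are the immunoglobulin-like proteins encoded by Ptgfrn and Igsf8. Ptgfrn had 34.3, 46.3, 36.9 and 58.3 CPM in day 12 replicates 1 to 4, against 87.3, 102 and 103 CPM in steady-state replicates 1 to 3, and so lay below steady state in every day 12 library (log2 fold change -1.15, SE 0.18, edgeR adjusted p = 0.00223). Igsf8, named after its values were seen, had 112, 116, 107 and 214 CPM in day 12 replicates 1 to 4, against 138, 127 and 141 CPM in steady-state replicates 1 to 3. The log2 fold change of 0.02 (edgeR adjusted p = 0.966) rested on day 12 replicate 4, and without that library it was -0.27 (edgeR adjusted p = 0.0240). Ptgfrn thus was lower together with Cd81, while Igsf8 was lower only in the other 3 day 12 libraries.

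Around the family, 34 genes of proteins that associate with tetraspanins were looked up, of which 29 were tested, 10 were higher and 5 were lower, with a median log2 fold change of 0.14. The shares over all genes tested were 10.1% higher and 10.2% lower, and 2 of the 29 partner genes passed the filter on low counts only through day 12. Without steady-state replicate 1 the counts were 6 higher and 3 lower, without replicate 2 there were 3 lower, and without replicate 3 there were 5 higher. Shares over all genes in those fits are not given here. The integrin subunit gene Itgb3 was lower at 8.04 ± 2.68 CPM at day 12 and 66.4 ± 9.39 CPM in steady state (log2 fold change -3.04, SE 0.26, edgeR adjusted p = 0.000151), and its platelet partner Itga2b stood at 0.615 CPM at day 12 and 0.631 CPM in steady state. The matrix protease Mmp14 was higher at 4.75 ± 1.37 CPM at day 12 and 0.966 ± 0.205 CPM in steady state (log2 fold change 2.29, edgeR adjusted p = 0.000853). Clec7a, which encodes the CD37-associated receptor dectin-1, was lower at 29.2 ± 11.5 CPM at day 12 and 107 ± 17.1 CPM in steady state (log2 fold change -1.88, edgeR adjusted p = 0.00154). The laminin-binding integrin gene Itga6, a partner of CD151 and named after its values were seen, had 1122, 1574, 781 and 1441 CPM in day 12 replicates 1 to 4, against 2345, 2422 and 2298 CPM in steady-state replicates 1 to 3. All day 12 libraries lay below steady state (log2 fold change -0.94, edgeR adjusted p = 0.0143), and the call ended when steady-state replicate 1 (0.0563) or 2 (0.0568) was left out. The scavenger receptor gene Cd36, also named after its values were seen, had 34.4, 146, 14.6 and 8.24 CPM in day 12 replicates 1 to 4, against 749, 808 and 811 CPM in steady-state replicates 1 to 3. Its log2 fold change was -3.96 (SE 0.97, edgeR adjusted p = 0.0284) with all libraries and -5.35 without day 12 replicate 2, the highest day 12 library. The edgeR adjusted p of Cd36 passed 0.05 without day 12 replicate 1 (0.0694), without steady-state replicate 1, 2 or 3 (0.0644, 0.0709 and 0.0744) and with no filter on low counts (0.0980). The integrin gene Itgb1, whose product pairs with that of Itga6, did not pass (log2 fold change 0.14, edgeR adjusted p = 0.395). Its day 12 libraries (1747, 1684, 1850 and 1681 CPM) still all lay above steady state (1497, 1640 and 1597 CPM).

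**Figure D4:**
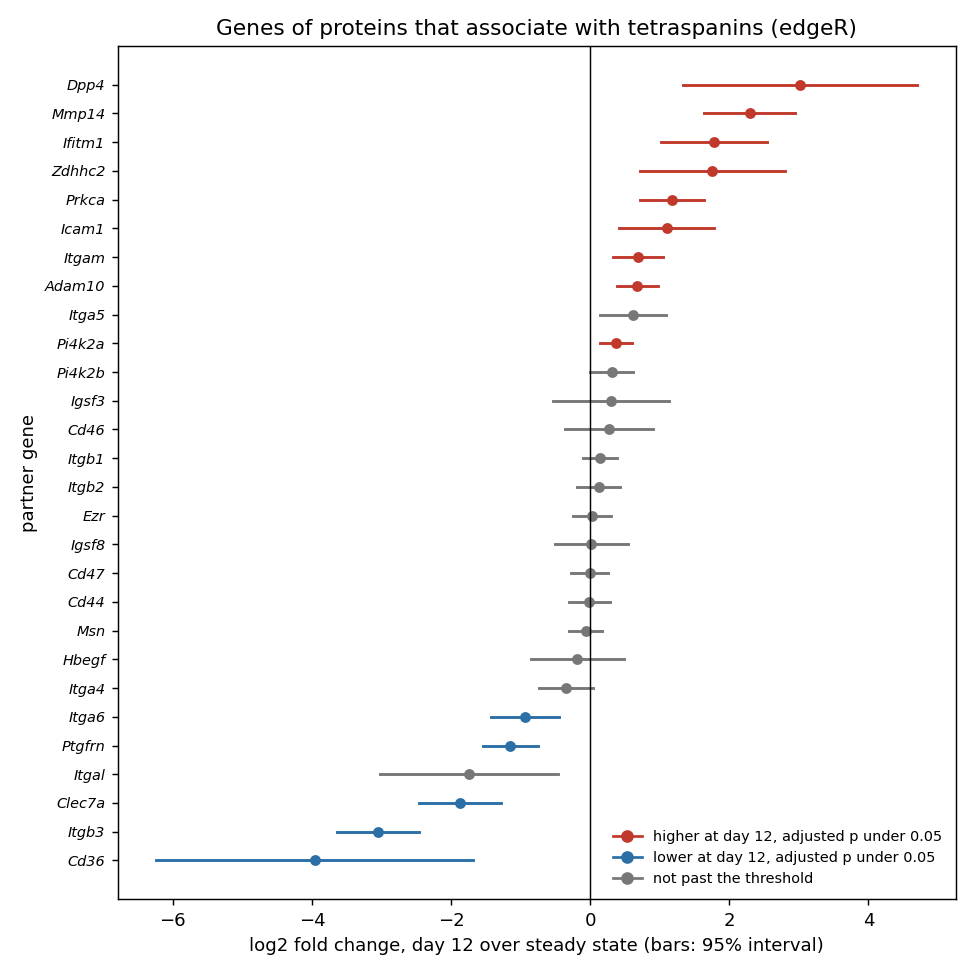
Log2 fold change, day 12 over steady state, of tested genes whose proteins associate with tetraspanins, 1 of the 29 not drawn (horizontal axis, with 95% intervals). Cd36 and Itgb3 lie farthest to the left, at -3.96 and -3.04, and Mmp14 lies past the threshold on the right at 2.29.

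Cd151 and Cd82 are surface tetraspanins known for binding integrins and for effects on cell migration, and neither passed the test. Cd151 stood at 35.2 ± 5.77 CPM at day 12 and 38.6 ± 4.02 CPM in steady state (95% interval of the log2 fold change -0.46 to 0.19). Cd82 stood at 39.0 ± 7.77 CPM at day 12 and 36.7 ± 5.41 CPM in steady state (95% interval -0.30 to 0.48). The libraries of the groups overlapped in both genes.

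The TspanC8 subgroup, Tspan5, Tspan10, Tspan14, Tspan15, Tspan17 and Tspan33, escorts ADAM10 out of the endoplasmic reticulum and affects which proteins it cuts. Tspan5 (ENSMUSG00000028152, chr3:138447956-138613666) had 22.8, 26.9, 23.7 and 22.5 CPM in day 12 replicates 1 to 4, against 50.9, 46.7 and 54.1 CPM in steady-state replicates 1 to 3. The 2 groups were far apart and each was tight, with means of 24.0 ± 2.01 CPM at day 12 and 50.6 ± 3.72 CPM in steady state (log2 fold change -1.08, SE 0.11, edgeR adjusted p = 0.000258, the lowest of the family). Tspan14 (ENSMUSG00000037824, chr14:40628402-40688764) had 186, 178, 225 and 267 CPM in day 12 replicates 1 to 4, against 249.98, 251 and 265 CPM in steady-state replicates 1 to 3. Its day 12 replicate 4 lay above the steady-state range and the other 3 below it, and the test did not pass (log2 fold change -0.25, 95% interval -0.59 to 0.08, edgeR adjusted p = 0.262). Without day 12 replicate 4, Tspan14 was lower (log2 fold change -0.38, edgeR adjusted p = 0.0243). Tspan17 stood at 27.3 ± 6.08 CPM at day 12 and 24.2 ± 2.25 CPM in steady state, with overlapping libraries (95% interval of the log2 fold change -0.21 to 0.55).

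Tspan14 made up most of the subgroup per kilobase, 80.0% to 81.8% at day 12 and 81.3% to 82.5% in steady state. Tspan5 took 2.45% to 4.38% at day 12 and 5.51% to 6.05% in steady state, and Tspan17 took 15.1% to 16.7% at day 12 and 11.3% to 12.6% in steady state. The gene of the protease itself, Adam10, named after its values were seen, had 373, 352, 454 and 326 CPM in day 12 replicates 1 to 4, against 229, 222 and 254 CPM in steady-state replicates 1 to 3. All day 12 libraries lay above steady state (log2 fold change 0.68, SE 0.13, edgeR adjusted p = 0.00718), in the direction opposite to Tspan5. Of 20 genes listed for proteins that ADAM10 cuts, 15 were tested, 4 were higher and 2 were lower, with a median log2 fold change of -0.13, beside shares of 10.1% higher and 10.2% lower among all tested genes. The number lower was 5 without day 12 replicate 4 and 1 without steady-state replicate 1, and shares over all genes in those fits are not given here. The cadherin gene Cdh1 was higher at 2.00 ± 0.658 CPM at day 12 and 0.129 ± 0.0182 CPM in steady state (log2 fold change 3.92, edgeR adjusted p = 0.000295), and it passed the filter on low counts only through day 12, so it had to differ. The 8 epithelial markers, Cdh1 among them, summed to 1.99 to 3.05 CPM at day 12 and 0.112 to 0.356 CPM in steady state. Most of the day 12 sum was Cdh1 itself (1.43, 1.53, 2.21 and 2.84 CPM in replicates 1 to 4), so the sum is not separate from that gene. Krt18 had 48 reads at day 12 and 4 in steady state, Epcam 10 and 4, Krt8 5 and 0, and Vil1 3 and 1, while Lgr5, Cdx2 and Krt20 had none in any library, and the part of these in the change of Cdh1 was not tested. Trem2, a lipid-sensing receptor of macrophages, was lower at 12.3 ± 3.90 CPM at day 12 and 37.4 ± 11.7 CPM in steady state (log2 fold change -1.60, edgeR adjusted p = 0.00355). Axl, a receptor for dying cells, was higher at 213 ± 56.4 CPM at day 12 and 63.3 ± 28.9 CPM in steady state (log2 fold change 1.75, edgeR adjusted p = 0.0104), a call that ended with no filter on low counts (0.0516). Fcer2a, the low-affinity IgE receptor of B cells, had 105 reads over the day 12 libraries and 0 in steady state, at least 23.5-fold higher against 3 counts over the group (edgeR adjusted p = 0.00559). It too passed the filter only through day 12, and 4 of the 7 B-cell markers looked up were higher at day 12 as well. The part of B cells in the change of Fcer2a was not tested. Notch1 and Notch2, the best known substrates, did not pass (log2 fold changes -0.38 and -0.19, edgeR adjusted p = 0.143 and 0.338).

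Cd53, Cd37 and Tspan32 are tetraspanins mainly of blood cells. Cd53 (ENSMUSG00000040747, chr3:106667237-106697465) had 586, 608, 650.1 and 386 CPM in day 12 replicates 1 to 4, against 504, 569 and 526 CPM in steady-state replicates 1 to 3. Day 12 replicate 4 was the lowest of all 7 libraries and the other 3 day 12 libraries were the highest, and the log2 fold change of 0.06 did not pass (95% interval -0.32 to 0.45, edgeR adjusted p = 0.830). Cd37 (ENSMUSG00000030798, chr7:44883056-44888539) had 378, 348, 355 and 454 CPM in day 12 replicates 1 to 4, against 424, 437 and 451 CPM in steady-state replicates 1 to 3. Here day 12 replicate 4 was the highest library and the other 3 were below steady state (log2 fold change -0.19, 95% interval -0.46 to 0.08, edgeR adjusted p = 0.311). Without that library Cd37 was lower (log2 fold change -0.28, edgeR adjusted p = 0.0213). Tspan32 (ENSMUSG00000000244, chr7:142558783-142573381) had 72.2, 81.3, 85.7 and 87.6 CPM in day 12 replicates 1 to 4, against 65.0, 58.7 and 59.98 CPM in steady-state replicates 1 to 3. The groups did not overlap, and the level was 1.33-fold higher (log2 fold change 0.42, SE 0.10, edgeR adjusted p = 0.0208). The call of Tspan32 ended without steady-state replicate 1 (0.0571), 2 (0.106) or 3 (0.101).

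Tspan4 and Tspan9 encode close relatives, Tspan4 known for building migrasomes, the vesicles that migrating cells leave behind, and Tspan9 known from platelets. Tspan9 (ENSMUSG00000030352, chr6:127938359-128120557) had 18.7, 14.8, 24.2 and 22.3 CPM in day 12 replicates 1 to 4, against 10.02, 10.3 and 11.7 CPM in steady-state replicates 1 to 3. All day 12 libraries lay above steady state, a 1.87-fold higher level (log2 fold change 0.90, SE 0.18, edgeR adjusted p = 0.00674). Of the platelet markers, Pf4 was lower (35.2 CPM at day 12 and 568 CPM in steady state, edgeR adjusted p = 0.00560) and Itga2b did not pass (0.615 CPM at day 12 and 0.631 CPM in steady state). Gp1ba had 11 reads at day 12 and 4 in steady state, Gp9 had 3 and 0, and Ppbp had 2 and 6, and the part of these in the change of Tspan9 was not tested. Tspan4 (ENSMUSG00000025511, chr7:141055153-141073340) had 31.1, 52.7, 21.7 and 57.1 CPM in day 12 replicates 1 to 4, against 52.3, 58.3 and 55.7 CPM in steady-state replicates 1 to 3. Day 12 replicates 2 and 4 lay within the steady-state range and replicates 1 and 3 well below it, so that the interval was wide (log2 fold change -0.45, 95% interval -1.14 to 0.24, edgeR adjusted p = 0.339). Tspan4 overlaps Chid1 on the other strand by 292 bases of gene span, and Chid1 stood at 38.0 CPM at day 12 and 33.2 CPM in steady state.

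Of the remaining tested members, Tspan7, Tspan13 and Tspan3 passed the test. Tspan7 (ENSMUSG00000058254, chrX:10351397-10462844), best known from neurons, rested on few reads, with counts of 5, 27, 12 and 10 in day 12 replicates 1 to 4, against 58, 75 and 69 in steady-state replicates 1 to 3. Even the highest day 12 library lay below steady state, and the level was 5.59-fold lower (0.354 ± 0.231 CPM at day 12 and 2.01 ± 0.255 CPM in steady state, log2 fold change -2.48, SE 0.44, edgeR adjusted p = 0.00435). Tspan13 (ENSMUSG00000020577, chr12:36064556-36092499) had 13.2, 17.9, 14.1 and 22.9 CPM in day 12 replicates 1 to 4, against 25.9, 29.4 and 28.9 CPM in steady-state replicates 1 to 3. The groups did not overlap (log2 fold change -0.72, SE 0.18, edgeR adjusted p = 0.0229), and the call ended when day 12 replicate 1 (0.0558) or 2 (0.0562), or any of steady-state replicates 1 (0.0671), 2 (0.0873) and 3 (0.0836), was left out. Tspan3 (ENSMUSG00000032324, chr9:56039009-56072761) had 32.0, 28.9, 33.9 and 32.5 CPM in day 12 replicates 1 to 4, against 24.9, 24.7 and 25.9 CPM in steady-state replicates 1 to 3. Each day 12 library was higher than each steady-state library, by a small step (log2 fold change 0.34, SE 0.10, edgeR adjusted p = 0.0401). The call of Tspan3 ended with no filter on low counts (0.103), when day 12 replicate 1 (0.0828) or 3 (0.0917) was left out, and when steady-state replicate 1 (0.127), 2 (0.154) or 3 (0.120) was.

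Tspan31, Tspan18 and Rom1 did not pass. Tspan31 (ENSMUSG00000006736, chr10:126903149-126906133) had 64.6, 67.0, 64.5 and 64.7 CPM in day 12 replicates 1 to 4, against 67.2, 76.1 and 73.5 CPM in steady-state replicates 1 to 3. Its groups did not overlap, by a narrow margin, and the log2 fold change was -0.15 (95% interval -0.35 to 0.05, edgeR adjusted p = 0.283). The gene overlaps Cdk4 on the other strand by 641 bases, and Cdk4 stood at 73.8 CPM at day 12 and 76.4 CPM in steady state, so with the strand setting of the counting unknown the reads in the overlap are uncertain. Tspan18, known from endothelial cells, stood at 3.19 ± 1.92 CPM at day 12 and 2.11 ± 0.705 CPM in steady state (95% interval of the log2 fold change -0.47 to 1.67). Rom1, a partner of Prph2 in the discs of photoreceptors, stood at 1.18 ± 0.275 CPM at day 12 and 1.38 ± 0.148 CPM in steady state (95% interval -0.82 to 0.36).

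The other 12 members did not pass the filter and had at most 11 reads in a library. The floor of 3 counts corresponds to 0.0754 to 0.0871 CPM at day 12 and 0.0840 to 0.0958 CPM in steady state. Several of these members exceeded it in 1 or more libraries. Prph2, Tspan11 and the bladder uroplakin gene Upk1b had no read in any library. The remaining 9 had few reads. Upk1a, the other uroplakin gene, had 7, 9, 10 and 4 reads in day 12 replicates 1 to 4, against 6, 2 and 1 in steady-state replicates 1 to 3. Tspan2, known from oligodendrocytes, had 2, 11, 2 and 2 reads in day 12 replicates 1 to 4, against 2, 0 and 5 in steady-state replicates 1 to 3. Tspan12, known from the Norrin and Frizzled4 pathway of retinal vessels, had 0, 0, 0 and 1 reads in day 12 replicates 1 to 4, against 3, 4 and 9 in steady-state replicates 1 to 3. Only Tspan12 was called, as lower, when the low-count filter was dropped (edgeR adjusted p = 0.0390). Tspan33 had 0, 1, 1 and 1 reads in day 12 replicates 1 to 4, against 8, 2 and 2 in steady-state replicates 1 to 3, and Tspan15 had reads in steady state alone, 4, 3 and 0. Tspan10 had at most 5 reads in a library, so that these TspanC8 members added little beside Tspan14, Tspan17 and Tspan5. The epithelial genes Tspan1 and Tspan8 had 7 and 4 reads in day 12 replicate 2 and 0 in the other 6 libraries, and Tspan6 had at most 3 reads in a library. The floor covers counting error alone, because PCR copies of a molecule are not independent of each other.

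Among the day 12 libraries, replicates 2 and 4 lay above replicates 1 and 3 in 7 of the 19 tested members (Cd63, Cd81, Cd9, Tspan13, Tspan18, Tspan31 and Tspan4), a pattern looked for after the values were seen. Over all genes tested it held for 23.5%, and the opposite pattern, seen in 0 of the 19 members, for 21.2%. In Cd63, Cd81 and Tspan13, which fell, replicates 2 and 4 were the day 12 libraries nearest to steady state, whereas in Cd9, which rose, they were the farthest from it. The summed monocyte markers were 35.5, 115, 18.1 and 167 CPM in day 12 replicates 1 to 4, of which Plac8 gave 25.7, 92.2, 4.10 and 143 CPM. Vcan gave 5.86, 14.1, 9.89 and 18.4 CPM, Ccr2 gave 3.97, 8.14, 4.00 and 4.64 CPM, and Ly6c2 gave 0.0530, 0.478, 0.0789 and 0.755 CPM. Each of these 4 markers was higher in replicates 2 and 4 than in replicates 1 and 3, and their part in the spread of the members was not tested.

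**Figure D5:**
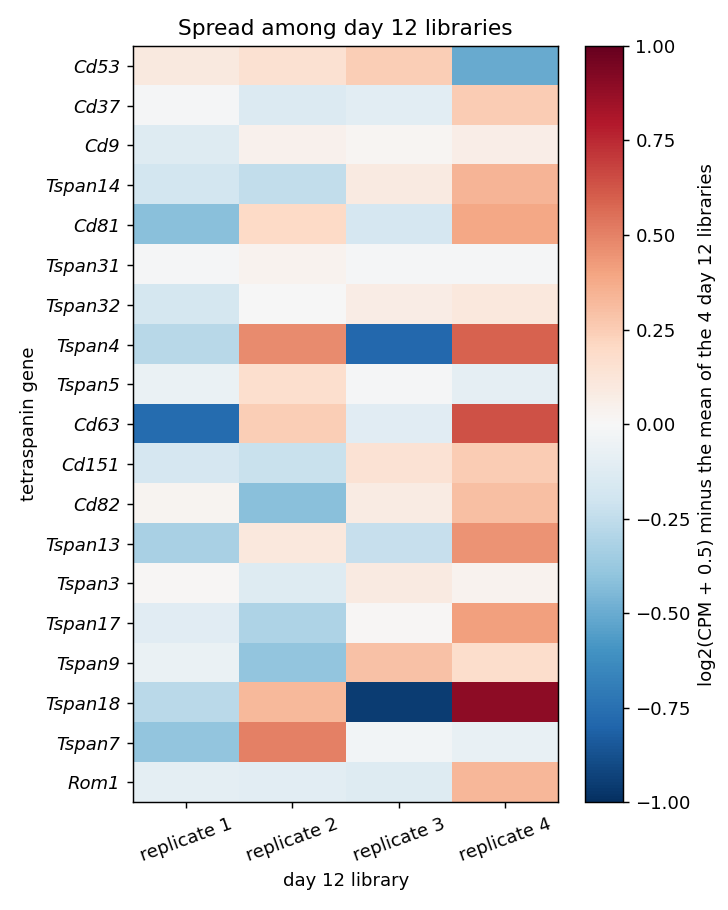
Difference of log2(CPM + 0.5) of each day 12 library from the mean of the 4 day 12 libraries (colour scale, red above and blue below), for the 19 tested tetraspanins (vertical axis, ordered by steady-state level). Replicates 2 and 4 are red and replicates 1 and 3 blue for Cd63, Cd81, Tspan13, Tspan18 and Tspan4.

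Some members are close neighbours on a chromosome. Tspan32 and Cd81 lie 33.1 kb apart on the same strand of chromosome 7, with Tspan32 higher (log2 fold change 0.42) and Cd81 lower (-1.21). Cd151 and Tspan4 lie 3.77 kb apart on the same strand of that chromosome, and neither passed the test (-0.13 and -0.45). Tspan18 and Cd82 lie 84.6 kb apart on chromosome 2 and did not pass (0.60 and 0.09), and Tspan9, which was higher, lies 7.42 kb from Tspan11, which had no read.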

How the data were processed

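The authors deposited a table of raw counts of reads per gene, not normalised, with a column for each of the 7 libraries. Reads were handled on GRCm39 with STAR 2.7.11a, SAMtools 1.10, FastQC, DESeq2 1.40.2 and featureCounts from Subread 2.0.6, per the submitters' processing notes. No source used here gives the annotation release, the strand setting or how multi-mapping reads were treated, which leaves overlapping genes and pseudogenes uncertain. Per the labels' protocols, macrophages were sorted on Tim4, CD11b and MHC class II to a purity over 97%, and directional poly-A libraries were made from 30 ng of RNA and read as 100-nt single reads. In the extract protocol a condition has 3 biological replicates, whereas the titles give 4 at day 12. Groups and replicate numbers came from the titles, and the count columns, whose names order the day and letter differently from the library names at day 12, were mapped by group and replicate number.

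The test was edgeR 4.0.16 (quasi-likelihood, robust, R 4.3.3) with TMM factors and group as the only term, after filterByExpr (minimum count 10, minimum total 15). Benjamini-Hochberg adjustment ran over all 15981 genes at 0.05. The biological coefficient of variation was 0.219. Each standard error was the log2 fold change divided by the root of F. The procedure was tested on simulated counts. CPM per kilobase used exon lengths of basic protein-coding transcripts of GENCODE M21 (lengths only), which may differ from the transcripts present. Promoter windows came from RefSeq on GRCm38.p6. Alternatives were RLE factors, library totals, other filters, DESeq2 1.42.0, limma-voom (limma 3.58.1), each library left out, and a replicate block.

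The members, the gene lists, the named genes and the motifs were chosen with earlier results of these data known. Full values were given for every called member and every member with at least 50 CPM in either group, and from each list for the 4 called genes with the lowest p. Other genes were named after their values were seen, as said where they appear. Other cell types looked up were T cells (0.768 to 3.14 CPM at day 12 and 0.504 to 0.801 CPM in steady state), NK cells (0.556 to 1.26 and 0.0639 to 0.208), eosinophils (1.47 to 2.16 and 1.69 to 1.85), mast cells (0 to 0.628 and 0 to 0.0593), dendritic cells (5.17 to 7.08 and 5.16 to 6.26), epithelium (1.99 to 3.05 and 0.112 to 0.356), fibroblasts (0.402 to 0.821 and 0 to 0.192) and endothelium (4.47 to 14.1 and 1.13 to 1.62), each as summed CPM of its markers, day 12 and then steady state. At day 12 the epithelial sum was mostly Cdh1. The endothelial sum was mostly Pecam1 (mean 7.82 CPM at day 12 and 1.17 CPM in steady state). Cdh5 had 7 reads at day 12 and 0 in steady state, Tek 23 and 11, and Kdr 6 and 10. Of the eosinophil markers, Siglecf was higher (1.18 and 0.424 CPM), Ccr3 did not pass (0.536 and 1.33 CPM), and Prg2 and Epx had no read. Handling and stress genes summed to 1148 to 1388 CPM at day 12 and 771 to 1064 CPM in steady state, with 6 of 10 higher (Fosb 9.89-fold, Egr1 6.74-fold, Fos 5.16-fold, Junb 2.31-fold, Atf3 1.75-fold and Ier2 1.69-fold) and 2 lower (Hspa1b 4.27-fold and Hspa1a 3.63-fold, near-identical copies whose reads may be split). Their part in the changes of the members was not tested. An item of the partner list is not reported here by name.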

Additional observations from a re-analysis of the deposited data

Results flagged for a closer look

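In groups of 4 libraries, the day 12 values of 49 genes, 27 of them tetraspanins, were searched for a library far from the other 3. In all, 8 were found, 7 of them tetraspanins, of which 2 had passed the filter on low counts. Chance gives about 1 in 20, a rate that does not hold for genes with only a few reads. The share over all genes was not computed, so the number says nothing particular about the family. Rom1 had 1.596 CPM in day 12 replicate 4 and 1.03 to 1.06 CPM in the other 3. Tspan31 had 67.0 CPM in day 12 replicate 2 and 64.5 to 64.7 CPM in the others, a small step in a tight group. Igsf8 had 214 CPM in day 12 replicate 4 and 107 to 116 CPM in the others.

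The other 5 rest on few reads. Tspan1 had 0.176 CPM (7 reads), Tspan8 had 0.101 CPM (4 reads) and Tspan2 had 0.276 CPM (11 reads) in day 12 replicate 2, against 0, 0 and 0.0526 to 0.0580 CPM in the other day 12 libraries. Tspan12 had 0.0290 CPM (1 read) in day 12 replicate 4 and 0 in the others, and Tspan33 had 0 in day 12 replicate 1 and 0.0251 to 0.0290 CPM in the others, which is within what single reads give.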

How the results depend on the processing

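Leaving out 1 library in turn gave 2 to 4 tetraspanins higher and 4 to 7 lower, with 2 higher without steady-state replicate 1, 2 or 3. For the partner genes it gave 5 to 11 higher and 3 to 6 lower, for the exosome genes 1 to 3 higher and 0 to 2 lower, and for the ADAM10 substrates 3 to 4 higher and 1 to 5 lower. Of the other alternatives, the exosome genes had 1 lower with a filter of 1 CPM in 3 libraries and 1 lower with the replicate block. The substrates had 4 lower with the block, and the cause was not tested. The number of all genes called also shifted beyond a fixed ratio in 3 of the 15 alternatives for higher and in 3 for lower. The counts of the lists were not set against these shifts, so they say nothing particular about the members. Cd63, Cd81, Tspan5, Tspan7, Cd9 and Tspan9 were called under all 15 alternatives, Tspan32 under 12, Tspan13 under 10 and Tspan3 under 9. Signs turned in genes near 0. Over these omissions the log2 fold change ranged from -0.015 to 0.21 for Cd53, from -0.016 to 0.24 for Cd82 and from -0.27 to 0.13 for Igsf8. That of Cd53 was -0.015 without day 12 replicate 3, that of Cd82 was -0.016 without day 12 replicate 4, -0.0039 without steady-state replicate 2 and -0.023 with the replicate block, and that of Igsf8 was -0.042 with limma-voom, -0.27 without day 12 replicate 4, -0.029 without steady-state replicate 2 and -0.27 with the block.

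The titles give replicate numbers but name no pairing of the samples. Same-numbered libraries correlated in their deviations at -0.14, 0.0077 and 0.20, and other pairs at -0.20 to 0.19. These few values, from deviations centred within each small group, cannot decide whether the samples were paired. With the number as a block on 6 libraries, day 12 replicate 4 left out, 4 tetraspanins were higher and 7 lower. All genes called were then 1979 higher and 2267 lower, against 1616 and 1626 in all 7 libraries with no block. These fits differ in their libraries as well as in the block. Under the block the calls of Axl (edgeR adjusted p = 0.0737), Cd36 (0.0643) and Smpd3 (0.0948) ended, and Cd37 (0.0375), Tspan14 (0.0172) and Igsf8 (0.0460) were called lower. Cd37, Tspan14 and Igsf8 were also called lower with day 12 replicate 4 left out and no block. With no filter on low counts, 3 tetraspanins were higher and 6 lower, and the share over all genes in that fit is not given here. Depth limits levels under the floor of 3 counts, 0.0754 to 0.0958 CPM.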
